A study of Homo sapiens with 4 samples.

Results

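The transcripts described here encode 10 cytokines and chemokines that fibroblasts can secrete: IL6, LIF, IL11, IL1A, IL1B, IL33, CXCL1, CXCL2, CXCL12 and CCL2. They were taken by gene symbol from a deposited expression table of 63651 rows with 56620 symbols. Rows are counted as genes here, and each of the 10 symbols matched 1 row. RNA was sequenced from BJ-5ta cells, human foreskin fibroblasts immortalised with telomerase, in a clonal derivative carrying a doxycycline-inducible FOXA2 gene. FOXA2 is a forkhead transcription factor of endoderm and liver. The induced group had 2 samples given doxycycline at 0.5 µg/ml, and the uninduced group had 2 samples of the same genotype without it. Both groups grew in MEM-Alpha with 10% fetal bovine serum, 1% penicillin-streptomycin, hygromycin B at 0.01 mg/ml, basic FGF at 5 ng/ml and puromycin at 0.5 µg/ml. Cells of a clonal line given doxycycline without the FOXA2 transgene were not among the samples used, so FOXA2 and the drug cannot be told apart. The labels also describe overnight mimosine, which holds cells in G1, without saying which cultures received it.

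IL-6, LIF and IL-11 signal through receptors that share the gp130 chain and activate JAK kinases and STAT3. The IL-1 family members IL-1α, IL-1β and IL-33 act on neighbouring cells when released from damaged or activated cells, and IL-1 receptors signal through MYD88 to NF-κB, a main inducer of IL6 and of the neutrophil-attracting chemokines CXCL1 and CXCL2. CCL2 attracts monocytes, and CXCL12, which is made constitutively by stromal cells, retains cells that carry its receptor CXCR4.

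The authors deposited 1 FPKM value per gene and group, a fragment count scaled to transcript length and library size, together with its confidence bounds. Whether a value combines both samples of its group, and what level the bounds have, is not stated. With no values of single samples there is no replicate check, and no p-value is given. The verbs rise and fall are used here for genes whose induced and uninduced intervals are separate. Genes that reached 1 FPKM in either group numbered 14319 and are called kept. The intervals were wide, with a median upper half-width of 99.97% of the FPKM in induced and 101% in uninduced cells, so an overlap does not show that a gene stayed the same. FOXA2 was at 104 FPKM (interval 50.2 to 158) in induced and 4.82 FPKM (0.526 to 9.12) in uninduced cells. All 15 fibroblast markers examined were present, between 47.3 and 2111 FPKM in induced and between 58.1 and 2098 FPKM in uninduced cells. Of these, 3 had at least 2-fold larger and 3 at least 2-fold smaller values in induced cells, all with overlapping intervals. COL3A1, a fibrillar collagen, was at 445 FPKM in induced and 125 FPKM in uninduced cells, and FN1 and DCN also had larger values. THY1, a fibroblast surface protein, was at 92.5 FPKM in induced and 388 FPKM in uninduced cells, and VIM and S100A4 also had smaller values. Of 15 leukocyte markers 3 were kept, CD68, CD14 and PTPRC, and the list summed to 182 FPKM in induced and 96.0 FPKM in uninduced cells, almost all of it CD68, a lysosomal protein. The list's other genes included 7, the T cell gene CD3E and the microglial and macrophage gene AIF1 among them, were listed at 0 in both groups. The 10 endothelial markers summed to 0.538 FPKM in induced and 1.38 FPKM in uninduced cells. The 10 keratinocyte markers summed to 28.4 FPKM in induced and 24.7 FPKM in uninduced cells, nearly all of it KRT10 and DSP, while KRT5 and KRT1 were listed at 0 in both groups. What these shifts and other cell types contribute to the cytokine values was not tested.

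LIF rose after induction as the values were deposited, alone among the 10, but its intervals overlapped under 2 of 3 other scalings. IL6, CXCL1 and CXCL2 had at least 2-fold larger values in induced cells and IL11 a more than 2-fold smaller value, all with overlapping intervals. CXCL12 was the most abundant of the 10 in both groups. IL1A, IL1B and IL33 were near or below 2 FPKM throughout. In RNA from a whole culture, fewer cells making a transcript and less of it per cell cannot be told apart.

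**Figure D1:**
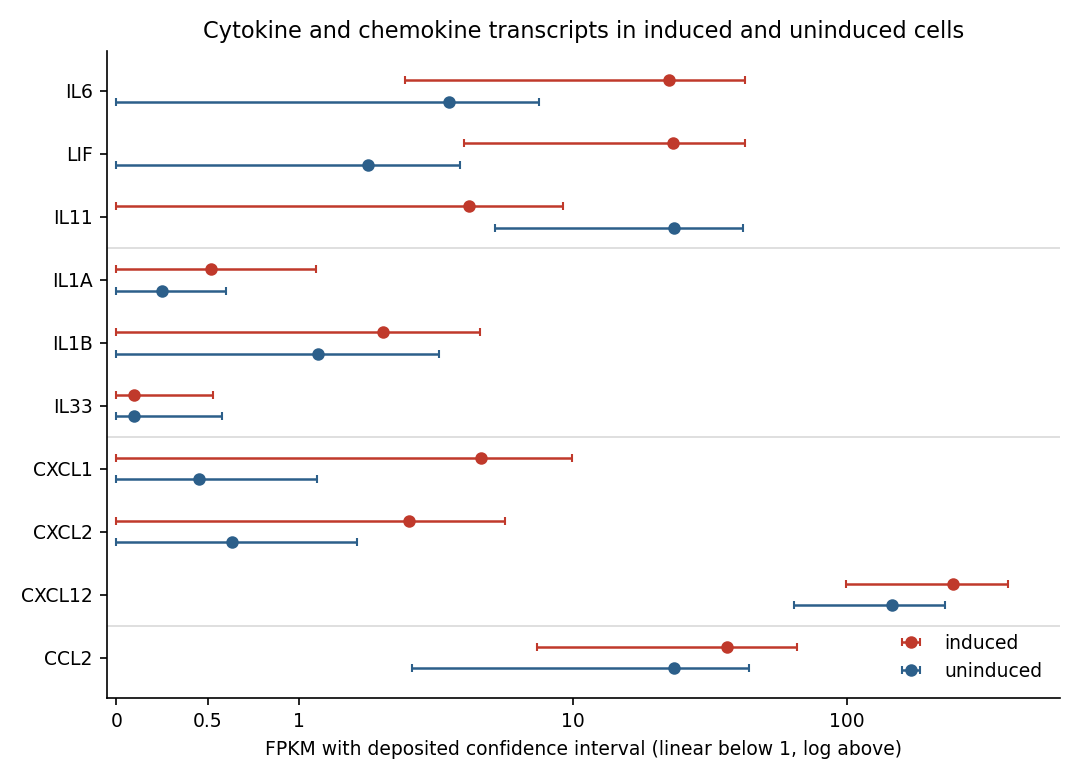
FPKM of the 10 transcripts in induced (upper, red) and uninduced (lower, blue) cells, with the deposited confidence interval as a bar; the axis is linear below 1 FPKM and logarithmic above. The LIF bars are separate, at 4.01 FPKM and above in induced cells and 3.87 FPKM and below in uninduced cells, and the bars of every other gene overlap.

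In numbers, 1 of the 8 members kept rose, where 0.726% of all kept genes did, and 0 of 8 fell, where 0.454% of all kept genes did, or 1.18% in either direction. At least 2-fold larger values, on the log2(FPKM + 1) scale that understates differences of low genes, were seen for 4 of the 8 in induced cells, against 9.20% of kept genes. A value at least 2-fold smaller was seen for 1 of the 8, against 6.03% of kept genes. IL1A and IL33 did not reach the filter in either group, and CXCL1 and CXCL2 reached it in induced cells only, so that a difference was built into their being kept. The median log2 difference over all 10 was 0.68, and the median of all kept genes was 0.05.

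**Figure D2:**
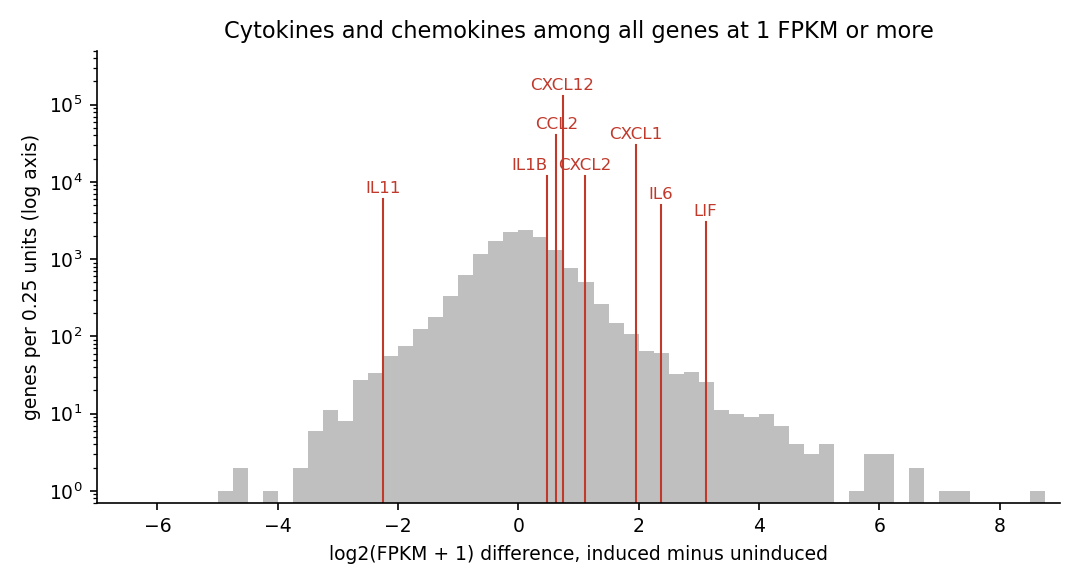
Number of kept genes (log axis) by log2(FPKM + 1) difference, induced minus uninduced, with red lines at the 8 cytokines and chemokines at 1 FPKM or more. LIF lies at 3.11 in the right tail and IL11 at -2.24 in the left tail, while IL1B, CCL2 and CXCL12 lie between 0.48 and 0.74.

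Among the gp130 cytokines, LIF and IL6 had larger and IL11 smaller values in induced cells. LIF, leukemia inhibitory factor, keeps mouse embryonic stem cells undifferentiated in culture. Its gene (ENSG00000128342, chromosome 22, 30635183 to 30642987, hg19, minus strand) was at 23.2 FPKM (interval 4.01 to 42.4) in induced and 1.79 FPKM (0 to 3.87) in uninduced cells, a ratio of 12.9. Between the nearest interval bounds the ratio was only 1.04, so LIF passed the criterion by a small margin. The log2 difference was 3.11, and 81 of the 14319 kept genes had a larger one. LIF no longer passed after quantile normalization, at 23.0 and 2.13 FPKM, or after median-of-ratios scaling, at 22.7 and 1.83 FPKM (induced given first in both). The gene is overlapped on the other strand by an antisense RNA, RP1-102K2.8, listed at 2.14 FPKM (interval 0 to 12.1) in induced and 0.0901 FPKM (0 to 1.12) in uninduced cells. An antisense RNA over IL6, AC073072.5, was listed at 0.0790 FPKM in induced and 0.0885 FPKM in uninduced cells. The library kept no strand, and the part of antisense reads in the LIF value was not tested.

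IL6, the fever and acute-phase cytokine of the family (ENSG00000136244, chromosome 7, 22765014 to 22771621, plus strand), was at 22.4 FPKM (interval 2.43 to 42.4) in induced and 3.53 FPKM (0 to 7.55) in uninduced cells. The ratio was 6.35 and the log2 difference 2.37, with 187 kept genes above it, and the intervals overlapped between 2.43 and 7.55 FPKM. The difference in FPKM, with half-widths combined as the root of their summed squares, was 18.9 (interval -1.50 to 39.3), which includes 0. In induced cells LIF and IL6 were thus at nearly the same FPKM.

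IL11, a profibrotic cytokine that fibroblasts make in response to TGF-β (ENSG00000095752, chromosome 19, 55875757 to 55881831, minus strand), was at 4.17 FPKM (interval 0 to 9.20) in induced and 23.5 FPKM (5.21 to 41.8) in uninduced cells. Its uninduced value was 5.63 times the induced one, and the log2 difference was -2.24, with 95 of 14319 kept genes below it. The intervals overlapped between 5.21 and 9.20 FPKM. The interval of the difference in FPKM, -38.3 to -0.354, excluded 0. By that looser criterion IL11 was lower in induced cells, as were 1.11% of kept genes, and LIF was higher, as were 1.26%. In uninduced cells IL11 was the second most abundant of the 10, and in induced cells it was the sixth.

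The 250 bases upstream of IL6 and IL11 are shown because the values of these genes differed in opposite directions, though with overlapping intervals. Whether the motifs marked bear on these directions was not tested. They were taken from RefSeq on GRCh38.p14, at chr7:22726950-22727199 on the plus strand for IL6 and chr19:55370464-55370713 on the minus strand for IL11, and read 5′ to 3′ towards the start of transcription. Capitals mark a match to the NF-κB consensus in IL6, from 73 to 64 bases before the start, and to the AP-1 motif TGANTCA in IL11, from 96 to 90 bases before the start.
IL6: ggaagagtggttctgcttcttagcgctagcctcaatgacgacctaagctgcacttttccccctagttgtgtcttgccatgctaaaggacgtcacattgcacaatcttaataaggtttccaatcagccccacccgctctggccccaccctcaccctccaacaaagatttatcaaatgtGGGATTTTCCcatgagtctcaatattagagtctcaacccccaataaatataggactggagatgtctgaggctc
IL11: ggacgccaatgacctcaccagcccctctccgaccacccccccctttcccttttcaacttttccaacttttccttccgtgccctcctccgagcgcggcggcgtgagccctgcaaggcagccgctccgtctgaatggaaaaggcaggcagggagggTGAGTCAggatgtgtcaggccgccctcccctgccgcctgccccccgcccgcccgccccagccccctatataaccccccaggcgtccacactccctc
On either strand, the NF-κB consensus occurs in 5.21% and TGANTCA in 6.57% of the 35116 upstream windows of this length in the RefSeq table. The C/EBP motif TTGCNNAA, found in 9.05% of windows, also occurs in the IL6 window, from 155 to 148 bases before the start. The same motif occurs in the windows of IL1B and CXCL2. Windows were at hand for 8 of the 10 genes, all but LIF and CCL2. The forkhead motif TGTTTAC, found in 2.98% of all windows, occurs in 0 of the 8. The CRE motif TGACGTCA, found in 1.65%, and the interferon-stimulated response element, found in 3.02%, also occur in 0. A STAT motif, TTCNNNGAA, found in 6.57% of windows, occurs in 1, IL1B.

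Of the remaining gp130 cytokines, 4 of 8 were kept and 0 rose or fell, with a median log2 difference of 0.25, or 0 over all 8. EBI3 reached 1 FPKM in induced cells only. CLCF1, cardiotrophin-like cytokine, was at 10.7 FPKM in induced and 9.62 FPKM in uninduced cells. CTF1, cardiotrophin 1, was at 7.83 FPKM in induced and 5.80 FPKM in uninduced cells. OSM, IL27 and IL31, made chiefly by blood cells, were listed at 0 in both groups. Of the 4 kept, 0 differed by 2-fold or more, as 15.2% of all kept genes did, so the count is near the background.

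Of 12 genes of the receptor side 11 were kept, and 0 rose or fell. IL6ST, which encodes gp130, was at 102 FPKM (interval 0 to 206) in induced and 93.9 FPKM (0 to 259) in uninduced cells. IL11RA was at 23.9 FPKM (interval 0.525 to 47.3) in induced and 16.0 FPKM (0.218 to 31.8) in uninduced cells. LIFR was at 5.18 FPKM (interval 0 to 11.0) in induced and 3.31 FPKM (0 to 7.98) in uninduced cells. IL6R, the IL-6 specific chain, was low, at 0.930 FPKM (interval 0 to 2.76) in induced and 1.54 FPKM (0 to 4.43) in uninduced cells. With lower bounds of 0, IL6ST, LIFR and IL6R were not separated from 0 in either group. The largest differences of the list were those of 2 signalling genes. JAK2 was at 24.9 FPKM (interval 7.18 to 42.6) in induced and 6.87 FPKM (1.69 to 12.1) in uninduced cells, and STAT3 at 71.6 FPKM (28.5 to 115) in induced and 33.7 FPKM (12.4 to 55.0) in uninduced cells, both with overlapping intervals. SOCS3, a STAT3-induced inhibitor of this pathway, was nearly level, at 18.4 FPKM in induced and 16.6 FPKM in uninduced cells. The list median was 0.14.

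The IL-1 family transcripts were scarce in both groups. IL1B, whose product is cleaved by caspase 1 before release (ENSG00000125538, chromosome 2, 113587328 to 113594480, minus strand), was at 2.03 FPKM (interval 0 to 4.58) in induced and 1.17 FPKM (0 to 3.26) in uninduced cells. IL1A, an alarmin active as a precursor (ENSG00000115008, chromosome 2, 113531492 to 113542167, minus strand), was at 0.519 FPKM (interval 0 to 1.15) in induced and 0.248 FPKM (0 to 0.601) in uninduced cells. IL33, a nuclear alarmin of barrier and stromal cells (ENSG00000137033, chromosome 9, 6215805 to 6257983, plus strand), was at 0.0960 FPKM (interval 0 to 0.528) in induced and 0.0973 FPKM (0 to 0.581) in uninduced cells. Every lower bound was 0, so none of the 3 was separated from 0 in either group. The sign of the IL33 difference turned with the scaling and cannot be read.

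IL1A and IL1B stand at one end of a cluster of 9 protein-coding genes of the family on chromosome 2, 113531492 to 113891593 (hg19), of which IL1B alone was kept. The 5 genes IL36A, IL36B, IL36RN, IL1F10 and IL1RN were listed at 0 in both groups. IL1RN encodes the secreted antagonist of the IL-1 receptor. Elsewhere in the family, IL18 was at 0.545 FPKM in induced and 0.0461 FPKM in uninduced cells. IL18BP, a secreted inhibitor of IL-18, was at 30.2 FPKM (interval 0 to 109) in induced and 0.975 FPKM (0 to 9.98) in uninduced cells, with overlapping intervals and a row whose span also holds NUMA1, LAMTOR1 and ANAPC15. It reached 1 FPKM in induced cells only, so that a larger induced value was built into its being kept.

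The machinery that receives and processes IL-1 was present. Of 13 IL-1 receptors and adaptors 9 were kept and 0 rose or fell. IL1R1, the signalling receptor, was at 30.3 FPKM in induced and 15.7 FPKM in uninduced cells, and IRAK1, a kinase of the pathway, at 39.5 FPKM in induced and 77.5 FPKM in uninduced cells. MYD88, the adaptor, was at 65.7 FPKM (interval 30.6 to 101) in induced and 19.7 FPKM (5.19 to 34.1) in uninduced cells. The MYD88 intervals overlapped, though the interval of the difference, 8.03 to 84.0 FPKM, excluded 0. IL1RL1, the IL-33 receptor, was at 2.41 FPKM (interval 0 to 5.70) in induced cells and listed at 0 in uninduced cells, and its row shares its span with IL18R1. Of 11 inflammasome and maturation genes 9 were kept and 0 rose or fell. CASP1, which cleaves IL-1β, was at 37.1 FPKM in induced and 24.8 FPKM in uninduced cells, CASP4 at 58.3 FPKM in induced and 70.1 FPKM in uninduced cells, and S100A13, which takes part in IL-1α export, at 142 FPKM in induced and 188 FPKM in uninduced cells. The largest difference among them was that of AIM2, a cytosolic DNA sensor, at 3.87 FPKM (interval 0 to 8.92) in induced and 0.0203 FPKM (0 to 0.599) in uninduced cells, with overlapping intervals. AIM2 and IL1RL1 reached 1 FPKM in induced cells only, so that a larger induced value was built into their being kept.

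CXCL1 and CXCL2, ligands of the neutrophil receptor CXCR2, were low in uninduced cells and had larger values in induced cells. CXCL1 (ENSG00000163739, chromosome 4, 74735110 to 74736959, plus strand) was at 4.63 FPKM (interval 0 to 9.97) in induced and 0.453 FPKM (0 to 1.17) in uninduced cells, a log2 difference of 1.96 and a ratio of 10.2. CXCL2 (ENSG00000081041, chromosome 4, 74962752 to 74965010, minus strand) was at 2.53 FPKM (interval 0 to 5.65) in induced and 0.634 FPKM (0 to 1.63) in uninduced cells, a log2 difference of 1.11 and a ratio of 4.0. Both induced intervals reached down to 0 and overlapped the uninduced ones. With a pseudocount of 5 in place of 1 the log2 differences were 0.82 for CXCL1 and 0.42 for CXCL2.

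Both genes lie in a CXC chemokine cluster on chromosome 4, 74606223 to 74965010 (hg19), with 9 protein-coding genes. Of these, 7 had a larger value in induced cells, 2 (PF4 and PPBP, platelet chemokines) were listed at 0 in both groups, and 0 rose or fell. CXCL3 was at 5.95 FPKM (interval 0 to 12.4) in induced and 0.345 FPKM (0 to 1.07) in uninduced cells. CXCL6 was at 3.09 FPKM in induced and 0.535 FPKM in uninduced cells, and CXCL5 at 0.950 FPKM in induced and 0.437 FPKM in uninduced cells. IL8, the older symbol of CXCL8, was the most abundant of the cluster, at 27.8 FPKM (interval 6.44 to 49.3) in induced and 12 FPKM (1.93 to 22.1) in uninduced cells. All these intervals overlapped between the groups.

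**Figure D3:**
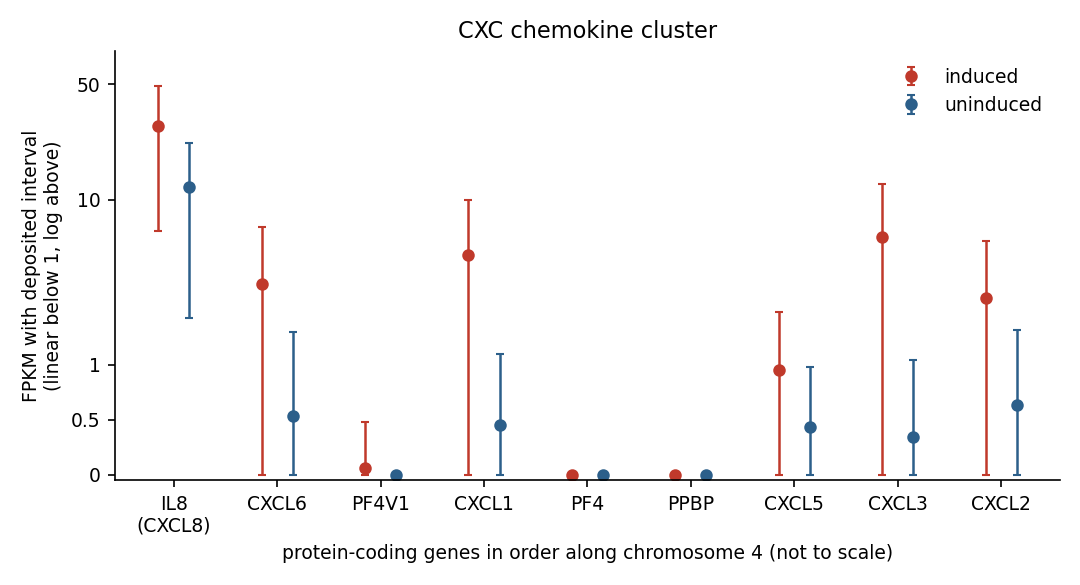
FPKM of the 9 protein-coding genes of the chromosome 4 CXC cluster in their order along the chromosome (not to scale), induced (left, red) and uninduced (right, blue), with the deposited interval as a bar on an axis that is linear below 1 FPKM and logarithmic above. The induced point lies above the uninduced one for 7 genes, PF4 and PPBP lie at 0, and all bars of a pair overlap or touch.

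CXCL1, CXCL2 and CXCL3 are close copies, so reads can match more than one of them. Over the 321 coding bases without the stop codon in GENCODE v29, CXCL1 and CXCL2 were identical at 300 positions (93.5%), CXCL1 and CXCL3 at 291 (90.7%), and CXCL2 and CXCL3 at 303 (94.4%). Stretches of 50 bases shared exactly with CXCL2 made up 5.73% of the CXCL1 transcript's 50-base stretches. Those shared with CXCL3 made up 0.57% of the stretches of CXCL1 and 4.62% of those of CXCL2. The labels do not say how the deposited FPKM divide such reads, and the 3 values should be read as those of a group. By contrast, CXCL1 and CXCL12 shared 0 such stretches and were 42.4% identical over the alignment.

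The copies also resemble each other upstream. The 250 bases before each start are shown because the 3 genes had similar values and share a motif: from RefSeq on GRCh38.p14, chr4:73869143-73869392 on the plus strand for CXCL1, chr4:74099196-74099445 on the minus strand for CXCL2 and chr4:74038690-74038939 on the minus strand for CXCL3. Capitals mark 2 overlapping matches to the NF-κB consensus, one on each strand, which begin 79 bases before the start in CXCL1 and CXCL3 and 78 bases before it in CXCL2.
CXCL1: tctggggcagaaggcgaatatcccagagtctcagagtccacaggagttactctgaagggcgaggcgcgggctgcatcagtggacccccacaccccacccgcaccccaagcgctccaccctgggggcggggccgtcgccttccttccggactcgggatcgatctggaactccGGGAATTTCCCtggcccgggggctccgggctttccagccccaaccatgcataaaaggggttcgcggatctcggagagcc
CXCL2: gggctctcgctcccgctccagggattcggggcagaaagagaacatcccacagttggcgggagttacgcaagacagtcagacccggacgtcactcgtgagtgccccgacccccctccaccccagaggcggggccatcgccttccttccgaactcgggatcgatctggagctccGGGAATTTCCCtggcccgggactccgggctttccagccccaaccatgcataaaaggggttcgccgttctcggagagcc
CXCL3: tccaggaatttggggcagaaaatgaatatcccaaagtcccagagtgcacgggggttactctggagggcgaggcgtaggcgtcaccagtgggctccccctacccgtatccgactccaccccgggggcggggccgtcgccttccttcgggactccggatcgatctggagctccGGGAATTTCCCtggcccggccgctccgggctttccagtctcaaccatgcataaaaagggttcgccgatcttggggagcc
In global alignments of these windows CXCL1 was 81.4% identical to CXCL3 and 67.9% identical to CXCL2, and CXCL2 was 73.3% identical to CXCL3. Among the 8 cytokine and chemokine genes with a window, the NF-κB consensus occurred in 3, IL6, CXCL1 and CXCL2. TGANTCA occurred in 2, IL11 and IL1A. Outside these 8 genes, it also occurred upstream of CXCL8, from 137 to 131 bases before the start. IL1A and CXCL8 had larger values in induced cells and IL11 a smaller one, all with overlapping intervals. The matches describe letters only and show no binding.

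CXCL12 was by far the most abundant of the 10. Its gene (ENSG00000107562, chromosome 10, 44793038 to 44881941, minus strand) was at 245 FPKM (interval 99.5 to 390) in induced and 147 FPKM (64.5 to 229) in uninduced cells, a ratio of 1.67 and a log2 difference of 0.74. The intervals overlapped over most of their length. It made up 71.8% of the summed FPKM of the 10 genes in induced and 72.8% in uninduced cells, and 242 kept genes had a larger value in induced and 628 in uninduced cells. In both groups the CXCL12 interval lay wholly above that of the next gene in order.

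CCL2 was the second most abundant gene in induced cells and the third in uninduced cells. Its row (ENSG00000108691, chromosome 17, 32581900 to 32584222, plus strand) was at 36.7 FPKM (interval 7.38 to 66.0) in induced and 23.3 FPKM (2.60 to 44.1) in uninduced cells, a log2 difference of 0.63 with intervals that overlapped widely. The 5 coding genes that follow it in the chromosome 17 cluster, CCL7, CCL11, CCL8, CCL13 and CCL1, were listed at 0 in both groups. CCL2 was thus the single coding gene with a value in the stretch from CCL2 to CCL1. Farther along chromosome 17, CCL5 was at 1.95 FPKM in induced and 0.0256 FPKM in uninduced cells. CCL3 and CCL4, near CCL5, were listed at 0 in both groups.

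In induced cells the order of FPKM was CXCL12, CCL2, LIF, IL6, CXCL1, IL11, CXCL2, IL1B, IL1A and IL33. In uninduced cells it was CXCL12, IL11, CCL2, IL6, LIF, IL1B, CXCL2, CXCL1, IL1A and IL33. Every neighbouring pair below CXCL12 had overlapping intervals in both groups, so the finer order is not resolved. At 1 FPKM or more there were 8 of the 10 in induced and 6 of the 10 in uninduced cells.

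Chemokines outside the 10 were mostly silent. Of 15 further CXC and CX3C chemokines 5 were kept, each with an at least 2-fold larger value in induced cells, as 9.20% of all kept genes had, and 0 rose or fell. CXCL3, CXCL6 and CX3CL1 reached 1 FPKM in induced cells only, each with a lower bound of 0 there, so that a larger induced value was built into their being kept. CXCL16, a membrane-anchored chemokine, was at 32.4 FPKM (interval 5.27 to 59.5) in induced and 2.39 FPKM (0 to 7.37) in uninduced cells. The CXCL16 intervals overlapped, though the interval of the difference, 2.43 to 57.5 FPKM, excluded 0. Of 16 further CC chemokines 2 were kept and 9 were listed at 0 in both groups. CCL26, an eosinophil attractant, was at 10.3 FPKM (interval 0 to 20.9) in induced and 0.437 FPKM (0 to 1.36) in uninduced cells. CCL5 was at 1.95 FPKM (interval 0 to 4.31) in induced and 0.0256 FPKM (0 to 0.375) in uninduced cells. Both CC chemokines likewise reached 1 FPKM in induced cells only.

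Receptors for the chemokines were nearly absent: 1 of 18 was kept, and 11 were listed at 0 in both groups. Among those at 0 were CXCR4 and ACKR3, the receptors of CXCL12, and CCR2, the receptor of CCL2. CXCR2, the receptor of CXCL1 and CXCL2, and CXCR1 were also among them. The kept one was ACKR4, a scavenging receptor of other chemokines, at 5.71 FPKM (interval 0 to 23.2) in induced and 12.2 FPKM (0 to 35.6) in uninduced cells, in a row whose span also holds ACAD11. CCR7 was at 0.362 FPKM in induced and 0.338 FPKM in uninduced cells.

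Among 18 other secreted cytokines 8 were kept and 0 rose or fell, with a median log2 difference of 0.77. Of the kept genes, IL12A, IL23A and TSLP reached 1 FPKM in induced cells only, so that a larger induced value was built into their being kept. Over all 18 the median was 0.076. MIF, macrophage migration inhibitory factor, was at 136 FPKM in induced and 271 FPKM in uninduced cells, and CSF1, the macrophage growth factor, at 34.1 FPKM in induced and 17.4 FPKM in uninduced cells. IL32 was at 10.1 FPKM (interval 0 to 20.2) in induced and 1.85 FPKM (0 to 4.83) in uninduced cells. TNF, IL10, IL12B and IL19 were listed at 0 in both groups.

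Of the NF-κB genes themselves 15 of 15 were kept, 0 rose or fell and 2, RELB and NFKB2, had at least 2-fold larger values in induced cells, with a list median of 0.20. RELA was at 48.2 FPKM in induced and 47.2 FPKM in uninduced cells, NFKB1 at 22.0 FPKM in induced and 21.8 FPKM in uninduced cells, while RELB was at 25.6 FPKM (interval 7.66 to 43.6) in induced and 10.2 FPKM (1.75 to 18.6) in uninduced cells. NFKB2, whose product pairs with RELB, was at 43.4 FPKM (interval 10.7 to 76.1) in induced and 19.0 FPKM (2.55 to 35.5) in uninduced cells, and both pairs of intervals overlapped. NFKBIA, the inhibitor that NF-κB itself induces, was at 38.4 FPKM (interval 13.1 to 63.8) in induced and 21.8 FPKM (4.78 to 38.9) in uninduced cells. Of 16 target genes that are not cytokines 12 were kept, with 6 above and 6 below 0 and a median of 0.0020, whose sign turned after quantile normalization and median-of-ratios scaling. PTGES, prostaglandin E synthase, rose, at 33.3 FPKM (interval 11.5 to 55.1) in induced and 1.69 FPKM (0 to 3.51) in uninduced cells. PTGS2, or COX-2, the enzyme before it in prostaglandin E2 synthesis, was at 46.4 FPKM (19.6 to 73.3) in induced and 86.5 FPKM (33.2 to 140) in uninduced cells, with overlapping intervals. BIRC3, an inhibitor of apoptosis, was at 8.59 FPKM (0.583 to 16.6) in induced and 1.22 FPKM (0 to 2.65) in uninduced cells, and ICAM1, an adhesion molecule, at 6.26 FPKM (0 to 18.7) in induced and 0.717 FPKM (0 to 4.50) in uninduced cells, also with overlap. ICAM1 reached 1 FPKM in induced cells only, in a row whose span also holds MRPL4 and ICAM4. At least 2-fold larger values were seen for 3 of the 12 and a smaller one for 1, TNFAIP6. TNFAIP6 was at 0.943 FPKM (interval 0 to 2.40) in induced and 5.44 FPKM (0 to 11.0) in uninduced cells, with overlapping intervals.

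Factors that set the life of cytokine mRNAs, with the C/EBP factors that act on IL6, had 10 of 11 members kept and 0 that rose or fell, with a median of -0.08 that was 0.10 with both columns scaled to the same sum. CEBPB was at 24.7 FPKM in induced and 27.9 FPKM in uninduced cells. HNRNPD, also called AUF1, and KHSRP, which bind AU-rich elements and promote decay, were at 128 and 125 FPKM in induced cells, against 244 and 189 FPKM in uninduced cells. ZFP36, or tristetraprolin, another decay factor that binds these elements, was at 16.8 FPKM in both groups, and its relative ZFP36L1 was at 78.1 FPKM in induced and 70.0 FPKM in uninduced cells. ZFP36L2 was at 38.6 FPKM in induced and 59.1 FPKM in uninduced cells. ZC3H12A, or Regnase-1, an RNase that degrades IL6 mRNA, was at 7.06 FPKM (interval 0 to 14.5) in induced and 2.91 FPKM (0 to 6.12) in uninduced cells. Over all 12 lists, 1 of 87 kept genes rose, PTGES, and 0 fell, close to the 0.726% and 0.454% of all kept genes.

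**Figure D4:**
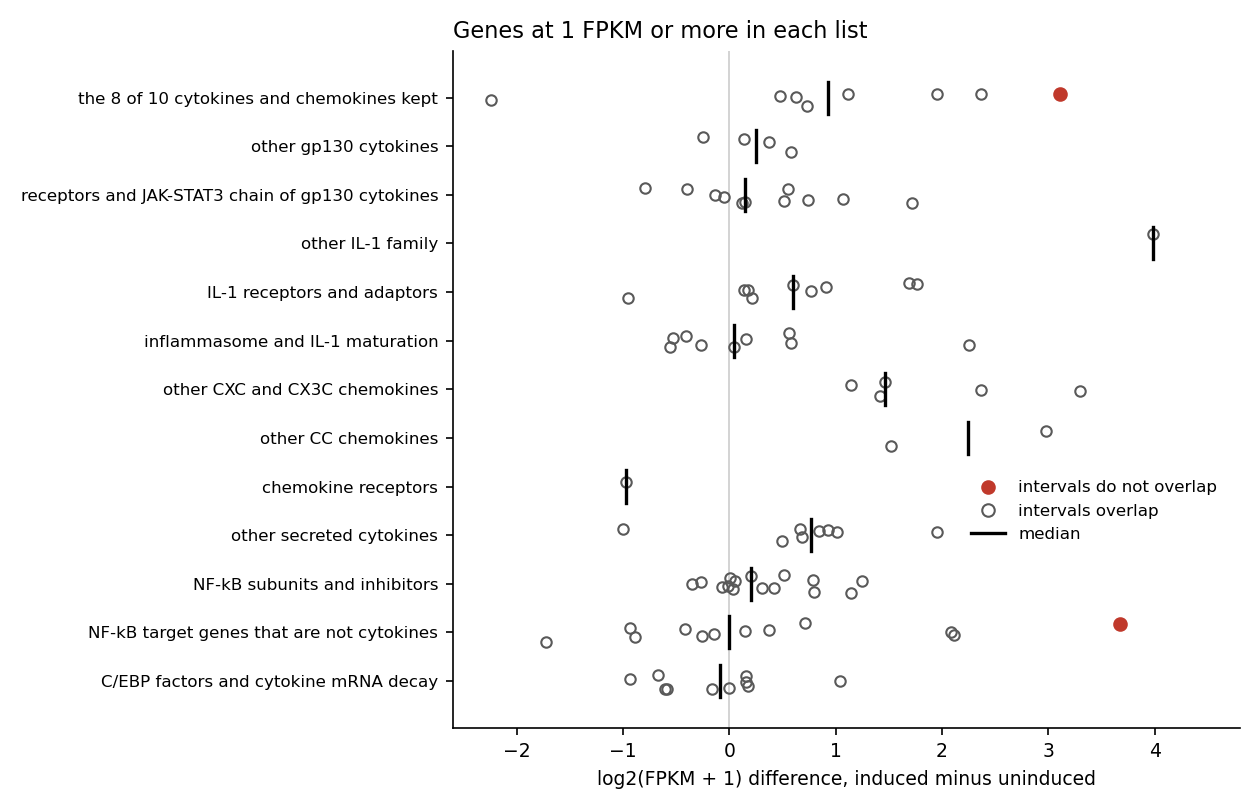
Log2(FPKM + 1) difference, induced minus uninduced, of each gene at 1 FPKM or more in the 8 kept cytokines and chemokines and in 12 lists of related genes, with the list median as a black bar. LIF and PTGES (filled) have intervals that do not overlap; open circles are genes whose intervals overlap.

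The direction of the differences did not depend on the scaling for 9 of the 10 genes, IL33 being the exception. Only the 3 other scalings and 2 other pseudocounts could move the log2 differences. The other filters, the interval of the difference and summed rows leave them as they are. The log2 difference then lay between 2.05 and 3.62 for LIF, between 1.68 and 2.63 for IL6 and between -2.46 and -1.63 for IL11. For CXCL12 it lay between 0.68 and 1.01 and for CCL2 between 0.56 and 0.82. Among the lower genes it lay between 0.82 and 3.10 for CXCL1, between 0.42 and 1.84 for CXCL2 and between 0.19 and 0.74 for IL1B.

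**Figure D5:**
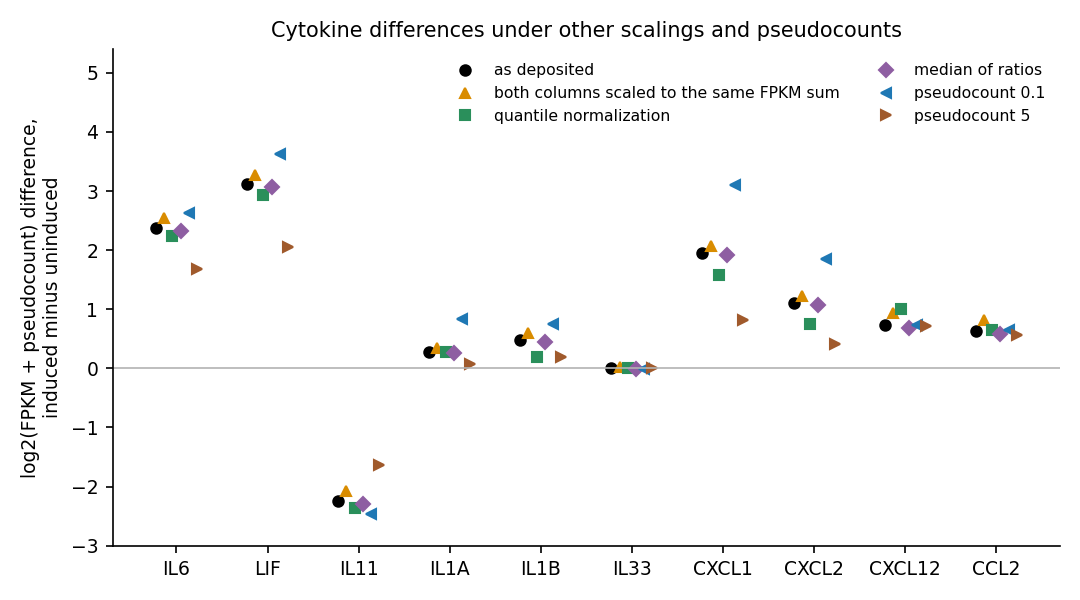
Log2 difference, induced minus uninduced, of the 10 transcripts as deposited and under 3 scalings and 2 other pseudocounts (symbols in the legend). CXCL1 spreads from 0.82 to 3.10 with the pseudocount, while CXCL12 and CCL2 stay between 0.56 and 1.01.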

How the data were processed

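RNA was sequenced from 2 induced and 2 uninduced samples, from non-stranded TruSeq libraries per the labels' protocols. The submitters' processing notes name TopHat and hg19; neither versions nor the quantifier, nor whether replicates were separate cultures, is given in the sources used here. The authors deposited FPKM with lower and upper confidence bounds of unstated level, 1 column set per group, and no counts, so depth is unknown. Columns were matched to groups by name; 3 value columns of a condition outside these samples were not used. Starts are printed counted from 1.

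The filter of 1 FPKM in either column left 14319 of 63651 rows, counted as genes, of which 3 have malformed bounds and could not be called. Differences are induced minus uninduced of log2(FPKM + 1). Planned fits needing a value per sample (limma, leaving out a replicate) could not be run. The members, lists and rule for named genes were chosen with earlier results of these data known. Named were the 10 members, FOXA2, kept coding genes of the clusters, and per list up to 4 called genes, by size of difference, or else the 2 most abundant; other genes named were chosen after their values were seen. Of several rows per symbol, that of largest mean FPKM counted. Alternatives were 3 scalings, the interval of the difference, other filters and pseudocounts, and summed rows. Upstream sequences came from RefSeq (GRCh38.p14), strands by gene ID and transcripts from GENCODE v29. Motifs were searched on both strands. Python 3.11.15, pandas 2.3.3 and Biopython 1.88 were used.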

Additional observations from a re-analysis of the deposited data

How the results depend on the processing

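LIF rose as deposited and with both columns scaled to the same FPKM sum. The number of members that rose was 0 after quantile normalization and 0 after median-of-ratios scaling, where the LIF log2 differences were 2.94 and 3.07. The other filters, the pseudocounts and summed rows leave the deposited bounds of LIF as they are, so they could not change its call. By the looser criterion, an interval of the difference that excludes 0, 1 member, IL11, was lower in induced cells, 3 genes of the 12 lists (PTGES, MYD88 and CXCL16) were higher, and 180 genes of the whole table were higher and 159 lower, against 104 and 65 by non-overlapping intervals. With both columns scaled to the same FPKM sum, 2 genes of the lists rose, and the median of all kept genes was 0.23 in place of 0.05. The number of members with at least 2-fold larger values was 2 among genes averaging 5 FPKM or more and 2 with a pseudocount of 5, against 4 as deposited. IL33 was at -0.0016 as deposited and 0.016 after scaling to equal sums. All alternatives were planned, and each member had 1 row, so summing rows moved nothing. No paired analysis was possible because values of single samples were not at hand; leaving out a replicate was not run for the same reason. Wide intervals limit what can be seen: the induced lower bound was 0 for 6 of the 10 members and the uninduced one for 7.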

Other observations

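The interferon-inducible chemokines CXCL9, CXCL10 and CXCL11, which draw T cells through CXCR3, were at 0.123 FPKM or less in both groups, and the interferon-inducible genes MX1 and ISG15 rose. MX1 was at 275 FPKM (interval 94.4 to 457) in induced and 1.70 FPKM (0 to 4.47) in uninduced cells, and ISG15 at 928 FPKM (442 to 1413) in induced and 40.9 FPKM (8.21 to 73.7) in uninduced cells. CXCL10 was at 0.123 FPKM (interval 0 to 0.490) in induced cells, CXCL11 at 0.0658 FPKM (0 to 0.390) and CXCL9 at 0.00924 FPKM (0 to 0.329), and each was listed at 0 in uninduced cells. Their rows share spans with other genes, ART3 for CXCL10 and CXCL11, and NAAA and SDAD1 for CXCL9, and NAAA was at 21.0 FPKM in induced and 9.16 FPKM in uninduced cells.

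The genes next to the cytokine clusters had values of their own. CKAP2L, a mitotic spindle gene beside IL1A, was at 9.42 FPKM (interval 1.07 to 17.8) in induced and 35.4 FPKM (9.94 to 60.9) in uninduced cells, with overlapping intervals, a log2 difference of -1.81 against 0.28 for IL1A. MTHFD2L, beside CXCL2, was at 7.15 FPKM in induced and 8.30 FPKM in uninduced cells, against 2.53 and 0.634 FPKM for CXCL2 in the same order. The choice of these genes came after their values were known.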
